A study of Mus musculus with 8 samples.

Results

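The genes described here are 9 genes of the neuroblast and GABAergic interneuron lineage that neural stem cells of the adult forebrain give rise to: Dlx1, Dlx2, Dlx5, Sp8, Sp9, Dcx, Tubb3, Gad1 and Gad2. They were chosen by symbol, and all 9 stood among the 45777 genes of the expression table. The level of each was measured by RNA-seq of ribosomal-RNA-depleted total RNA in 8 libraries of mouse subventricular zone neural stem cells. Of the 9, 7 had enough reads to be tested among 17644 genes, and Dlx5 and Gad2 did not.

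The study set S1PR1-deficient cells against control cells, which the labels call wild type, each treated with high-density lipoprotein labelled ApoM- or ApoM+. S1PR1, encoded by S1pr1, is a receptor for sphingosine-1-phosphate, the lipid that apolipoprotein M carries on these particles. Each combination of genotype and preparation has 2 samples, all 8 received a lipoprotein, and the labels do not say whether replicates were separate cultures or animals, so p-values measure only the spread between these samples. The sources used here give neither how S1pr1 was deleted nor the age of the mice or the lipoprotein dose.

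The table names its libraries GH1, GH2, GV1, GV2, CH1, CH2, CV1 and CV2. C was read as control, and G as S1PR1-deficient by elimination; H and V are explained by no source used here and are compared as letters, without saying which preparation either one is. S1pr1 itself did not check this reading. It had 970, 848, 1008 and 940 reads in the libraries coded GH1, GH2, GV1 and GV2, against 1016, 1033, 807 and 703 reads in those coded CH1, CH2, CV1 and CV2. The G minus C difference was 0.08 ± 0.08 on the log2 scale (SE, n = 4 each, adjusted p = 0.568). By letter, edgeR gave -0.13 ± 0.11 between GH and CH (adjusted p = 0.711) and 0.28 ± 0.12 between GV and CV (adjusted p = 0.089). Without a filter on low counts, edgeR called S1pr1 higher in GV than in CV libraries (0.31, adjusted p = 0.0356). A count per gene does not show whether these reads come from the deleted part, so the direction of every G against C comparison below rests on the reading of the codes. Libraries held between 39619305 and 45698186 reads assigned to genes.

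In the adult subventricular zone, slowly dividing stem cells produce transit-amplifying cells and then neuroblasts, which migrate to the olfactory bulb and become mostly GABAergic interneurons. Dlx1 and Dlx2 are homeodomain transcription factors that set this fate, and Dlx5 is one of their downstream relatives. Sp8 and Sp9 are zinc-finger transcription factors that later neuroblasts need. Dcx and Tubb3 encode a microtubule-binding protein and a neuronal beta-tubulin, and Gad1 and Gad2 encode the enzymes that make GABA from glutamate.

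The promoters of Gad1, Tubb3 and Sp9 are shown because these genes passed a test in at least 1 comparison, and that of Gad2 because it belongs to the second gene for the same enzyme step and was barely read. Each window runs 5′ to 3′ on the gene's strand, from 250 bases before to 50 bases after the start, in RefSeq's GRCm38.p6. The windows are chr2:70561879-70562178 for Gad1, chr8:123411303-123411602 for Tubb3, chr2:73271676-73271975 for Sp9 and chr2:22622077-22622376 for Gad2, all on the plus strand. Capitals mark the matches to 4 motifs searched on both strands, the homeodomain core TAATTA, the GC box GGGCGG, the E-box CAGCTG and the TATA box TATAAA.
Gad1: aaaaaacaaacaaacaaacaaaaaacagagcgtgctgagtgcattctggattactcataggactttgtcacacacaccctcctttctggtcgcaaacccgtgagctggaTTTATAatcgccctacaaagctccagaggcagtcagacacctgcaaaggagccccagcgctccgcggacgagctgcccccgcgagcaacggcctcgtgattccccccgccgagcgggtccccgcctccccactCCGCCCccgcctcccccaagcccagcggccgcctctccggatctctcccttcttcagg
Tubb3: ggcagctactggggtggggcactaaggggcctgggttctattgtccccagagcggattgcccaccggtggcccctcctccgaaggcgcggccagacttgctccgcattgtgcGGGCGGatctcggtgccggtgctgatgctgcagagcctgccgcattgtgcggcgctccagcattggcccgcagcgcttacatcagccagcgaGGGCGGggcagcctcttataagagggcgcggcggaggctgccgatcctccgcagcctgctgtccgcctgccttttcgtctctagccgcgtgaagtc
Sp9: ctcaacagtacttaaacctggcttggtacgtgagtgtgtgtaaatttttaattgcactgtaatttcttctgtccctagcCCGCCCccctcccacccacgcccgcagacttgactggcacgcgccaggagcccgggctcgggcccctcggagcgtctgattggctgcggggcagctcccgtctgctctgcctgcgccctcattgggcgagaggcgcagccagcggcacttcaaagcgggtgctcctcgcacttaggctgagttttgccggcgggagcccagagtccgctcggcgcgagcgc
Gad2: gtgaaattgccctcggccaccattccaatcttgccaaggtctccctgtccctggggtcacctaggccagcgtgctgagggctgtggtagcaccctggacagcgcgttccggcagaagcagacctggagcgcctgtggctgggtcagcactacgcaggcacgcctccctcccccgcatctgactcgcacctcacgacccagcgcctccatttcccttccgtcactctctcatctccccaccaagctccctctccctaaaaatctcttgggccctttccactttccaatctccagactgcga
The Gad1 window held 1 GC box and 1 TATA motif, that of Tubb3 held 2 GC boxes, that of Sp9 held 1 GC box, and that of Gad2 held no match. Among 32851 windows of the same length, 35.7% held GGGCGG, 13.6% TATAAA, 16.3% CAGCTG and 5.29% TAATTA. GC content was 60.0% for Gad1, 67.3% for Tubb3, 63.7% for Sp9 and 61.3% for Gad2, against a median of 52.7% over all windows. These matches are letters in a window and were not tested as binding sites. Of the 9 genes, 8 had a RefSeq window, and 5 lie on chromosome 2, where 9426 bases separate Dlx1 and Dlx2.

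The 9 genes differed widely in level, and the highest of them, Gad1 and Tubb3, lay within the range of the stem cell markers. Per kilobase of exon, over the mean of the 8 libraries in TMM-normalised CPM (counts per 1000000 reads), Gad1 stood at 7.66 and Tubb3 at 7.25. Dlx1 followed at 0.32, Dlx2 at 0.202, Sp9 at 0.2, Dcx at 0.0593, Sp8 at 0.0326 and Gad2 at 0.024. Gad1 and Tubb3 were not ordered consistently: the ratio of their means per kilobase was 1.06, and the ratio in single libraries ran between 0.545 and 1.51. Likewise the ratio of means of Dlx1 over Dlx2 was 1.58 and that in single libraries ran between 0.918 and 2.47, and Dlx2 and Sp9 lay at nearly the same level. Gad1 was above Dlx1 in every library, by 14.3 to 35.8 times. Nestin, the stem cell intermediate filament encoded by Nes, stood at 116 CPM per kilobase, between 1310 and 3290 times the level of Dcx. Sox2, a stem cell transcription factor, stood at 56.1. Not all stem cell markers were above the 9 genes, since Hes5, a Notch target, stood at 1.51 and Prom1, a membrane glycoprotein gene, at 0.242. Tubb2b, a tubulin shared with dividing progenitors, stood at 376. Microglial markers summed to at most 0.3 CPM, with Aif1, Csf1r, Tyrobp and C1qa at 0 reads, and the glutamatergic lineage markers to at most 1.47 CPM, with Neurod6 and Slc17a6 at 0 reads.

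**Figure D1:**
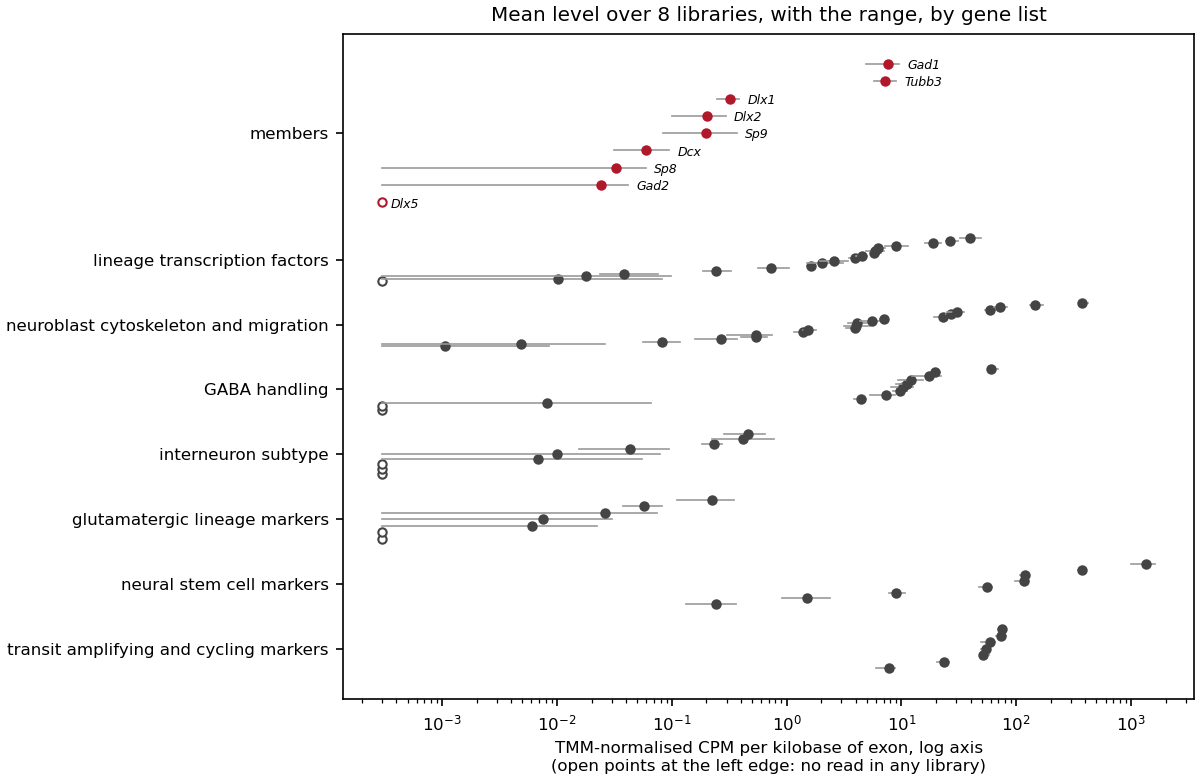
Mean level per kilobase of exon over 8 libraries on a log axis, for the 9 genes (red, named) and for each gene of the other lists (grey), with lines from the lowest to the highest library. Lines that reach the left edge include a library with 0 reads; Gad1 and Tubb3 stand near 7 and the other 7 genes below 1.

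The GABA-synthesis gene Gad1 was higher in G-coded than in C-coded libraries, and the neuronal tubulin gene Tubb3 was lower, while the transcription factors and Dcx did not pass the test. Over both letters, 2 of the 7 tested genes were called at an adjusted p below 0.05, 1 in each direction. Of all genes tested, 20% were called, 9.32% higher and 10.7% lower in G-coded libraries. The median log2 difference was -0.18 over the 7 genes and -0.008 over all genes.

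Gad1 had 59.5 and 63.3 CPM in GH and 72.9 and 71.3 CPM in GV libraries, against 37.3 and 42.2 CPM in CH and 59.4 and 62.6 CPM in CV libraries. The 4 G-coded libraries averaged 66.7 ± 6.41 CPM and the 4 C-coded ones 50.3 ± 12.5 CPM (SD, n = 4 each). The CH libraries lay lowest and the GV libraries highest, while GH and CV overlapped. G minus C was 0.43 ± 0.05 on the log2 scale (SE), a 1.35-fold difference, with adjusted p = 0.000173 from edgeR's quasi-likelihood test. In RNA of bulk samples, more cells of a type and more RNA per cell cannot be told apart. Leaving out any single library kept the Gad1 difference between 0.39 and 0.48. Gad1os, a long noncoding RNA gene whose annotation overlaps Gad1 by 2055 bases, had 19 to 42 reads, against 1490 to 3304 for Gad1, and how reads in the overlap were assigned is not given here.

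Tubb3 had 12.7 and 10.7 CPM in GH and 12 and 11.5 CPM in GV libraries, against 16.7 and 13.6 CPM in CH and 15.3 and 15.6 CPM in CV libraries. Every G-coded library lay below every C-coded one, with means of 11.7 ± 0.833 and 15.3 ± 1.29 CPM (SD, n = 4 each). The difference was -0.38 ± 0.09 (log2, SE), or 0.767-fold, with adjusted p = 0.00833. It stayed between -0.45 and -0.31 with any library left out. An additive edgeR fit of genotype and letter gave Tubb3 -0.38 with adjusted p = 0.0399, nearer the threshold.

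**Figure D2:**
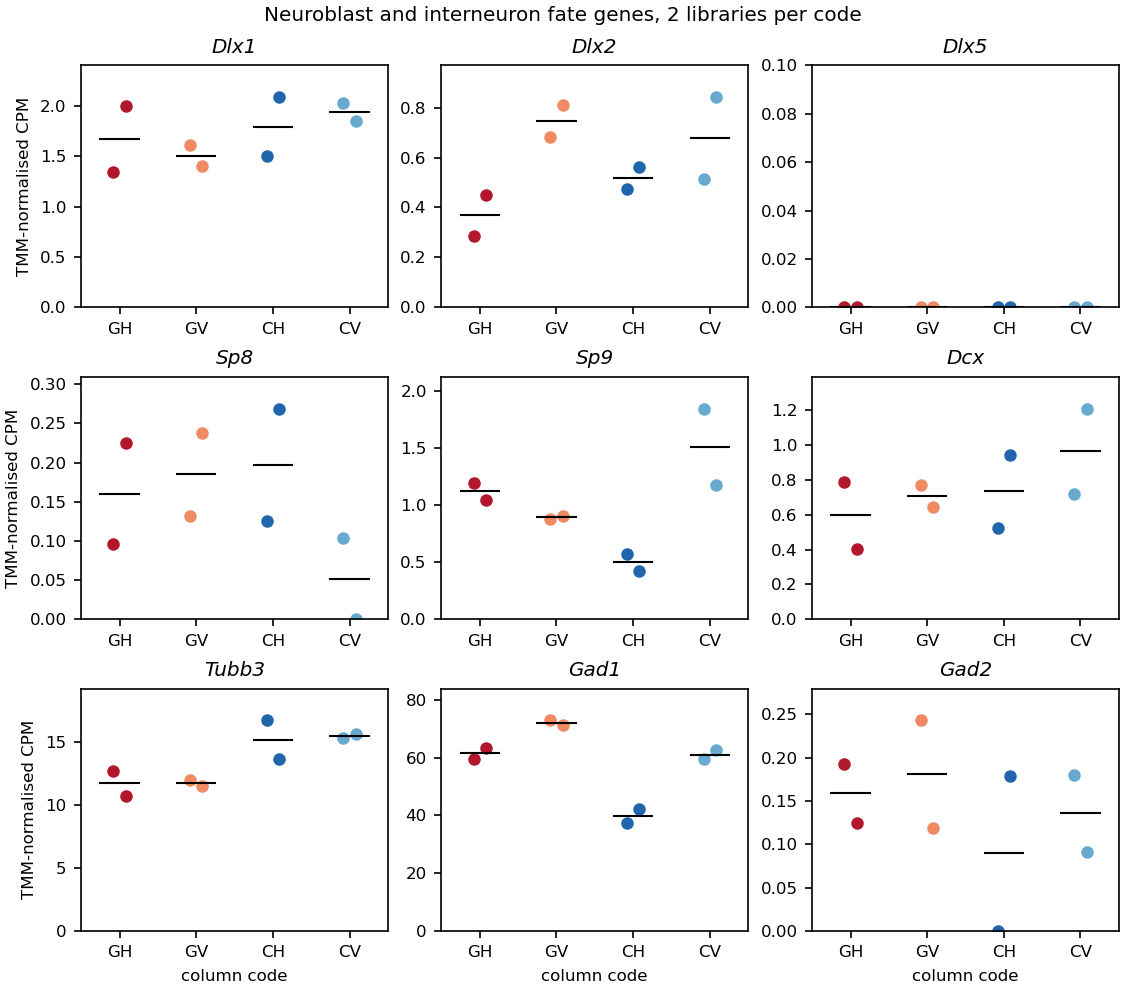
TMM-normalised CPM of the 9 genes in each of the 8 libraries, grouped as GH, GV, CH and CV, with a bar at the mean of each pair. Gad1 is lowest in the CH libraries, Tubb3 is lower in all 4 G-coded libraries, Sp9 is spread most between CH and CV, and Dlx5 is at 0 throughout.

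The Dlx genes and Dcx showed no difference between G and C beyond their spread. Dlx1 had 1.34, 2.0, 1.61 and 1.4 CPM in GH1, GH2, GV1 and GV2, against 1.5, 2.09, 2.03 and 1.85 CPM in CH1, CH2, CV1 and CV2. The groups overlapped, and the difference of -0.23 ± 0.21 (log2, SE) has an approximate 95% interval between -0.64 and 0.17 (adjusted p = 0.486). Dlx2 ran between 0.287 and 0.809 CPM in G-coded and between 0.475 and 0.843 CPM in C-coded libraries, with 12 to 37 reads. Its difference was -0.18 ± 0.35 (log2, SE, interval -0.88 to 0.52, adjusted p = 0.783). Dcx had 33, 16, 35 and 27 reads in GH1, GH2, GV1 and GV2, against 21, 42, 28 and 53 reads in CH1, CH2, CV1 and CV2. At -0.38 ± 0.34 (log2, SE, interval -1.04 to 0.28, adjusted p = 0.493), Dcx had the same estimate as Tubb3 with a far wider interval.

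Sp9 had the same mean in both genotypes, 1.01 ± 0.146 CPM in G-coded and 1.01 ± 0.65 CPM in C-coded libraries (SD, n = 4 each), with G minus C at 0.20 ± 0.26 (log2, SE, adjusted p = 0.643). Sp8 had 29 reads over the 4 G-coded and 21 over the 4 C-coded libraries, and its difference of 0.77 ± 0.84 (log2, SE, adjusted p = 0.585) is not determined at this depth. Gad2, with 29 reads over the G-coded and 19 over the C-coded libraries, was too low to test. Dlx5 had 0 reads among 336410998, which allows up to 0.00892 CPM over all libraries (3 reads; counting error only). Its neighbour Dlx6, and the noncoding genes Dlx1as, Dlx6os1 and Dlx6os2, also had 0 reads in all 8 libraries. Dlx1as is annotated as antisense to Dlx1, with 3344 bases of overlap.

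Within each letter, Gad1 was higher in G-coded libraries. Between GH and CH libraries, Gad1 differed by 0.63 ± 0.07 (log2, SE, n = 2 each), or 1.54-fold, with adjusted p = 0.000425 and no overlap. It was 1 of the 7 genes called, where 2.18% of all genes were called, 0.958% higher and 1.22% lower. Between GV and CV libraries Gad1 differed by 0.24 ± 0.07 (log2, SE, n = 2 each), or 1.18-fold, with adjusted p = 0.0253. In that comparison 2 of the 7 genes were called, Gad1 higher and Tubb3 lower, where 25.5% of all genes were called, 11.8% higher and 13.7% lower. The median over the 7 genes was -0.3 for H and -0.36 for V, against 0.003 and -0.015 over all genes.

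Tubb3 had nearly the same estimate under both letters, -0.37 ± 0.13 between GH and CH (adjusted p = 0.179) and -0.40 ± 0.13 between GV and CV (log2, SE, adjusted p = 0.0318). The difference between these estimates was 0.03 ± 0.18 (log2, SE, adjusted p = 0.955). Both V calls, of Gad1 and of Tubb3, were lost when any of GV1, GV2, CV1 or CV2 was left out. The adjusted p over all leave-one-out fits reached 0.149 for Gad1 and 0.139 for Tubb3. Sp9 pointed in opposite directions, 1.17 ± 0.38 between GH and CH (adjusted p = 0.154) and -0.76 ± 0.35 between GV and CV (log2, SE, adjusted p = 0.135), neither of them called.

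**Figure D3:**
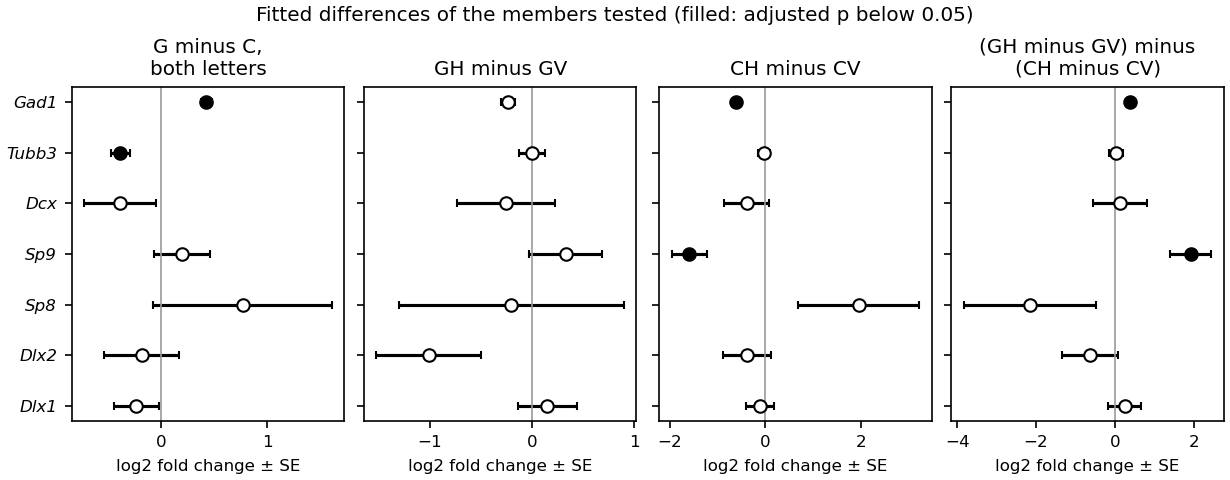
Fitted log2 differences of the 7 tested genes with bars of 1 SE on each side in 4 comparisons, with filled points for adjusted p below 0.05. Gad1 has the shortest bars, at 0.43 for G against C and -0.62 for CH against CV, Sp8 has the longest, and Sp9 lies at -1.59 for CH against CV.

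Between H and V in C-coded libraries, Gad1 and Sp9 were lower under H. Gad1 averaged 39.7 ± 3.45 CPM in CH and 61.0 ± 2.26 CPM in CV libraries (SD, n = 2 each), without overlap. The difference was -0.62 ± 0.07 (log2, SE), or 0.652-fold, with adjusted p = 0.000366, and it stayed called with any library left out. Sp9 had 23 and 19 reads in CH, against 72 and 52 reads in CV libraries. At 0.501 ± 0.106 CPM in CH and 1.52 ± 0.471 CPM in CV libraries (SD, n = 2 each), it differed by -1.59 ± 0.37 (log2, SE), or 0.331-fold, with adjusted p = 0.0158. The Sp9 call was lost without CH2 (-1.39, adjusted p = 0.147) and without CV1 (-1.24, adjusted p = 0.101). These were 2 of 7 genes called, both lower, where 11.8% of all genes were called, 6.34% higher and 5.45% lower; the medians were -0.39 over the 7 genes and -0.008 over all genes. Tubb3 barely differed, at -0.03 ± 0.12 (log2, SE, interval -0.27 to 0.21, adjusted p = 0.916). Sp8 had 5 and 12 reads in CH, against 4 and 0 reads in CV libraries, with adjusted p = 0.372. S1pr1 was higher in CH than in CV libraries in the same fit, by 0.40 ± 0.11 (log2, SE, adjusted p = 0.036), a call lost in 5 of the 8 leave-one-out fits.

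In G-coded libraries none of the 7 genes was called between H and V by edgeR, where 1.94% of all genes were called, 1.71% higher and 0.232% lower. Gad1 came closest, at 61.4 ± 2.68 CPM in GH and 72.1 ± 1.14 CPM in GV libraries (SD, n = 2 each), a difference of -0.23 ± 0.07 (log2, SE, adjusted p = 0.132). It was the 1 gene of the 7 with an unadjusted p under 0.05, and DESeq2 called it (-0.25, adjusted p = 0.0454). Dlx2 had 12 and 18 reads in GH, against 31 and 34 reads in GV libraries, without overlap, at -1.01 ± 0.51 (log2, SE, adjusted p = 0.38). Sp9 differed by 0.33 ± 0.36 (log2, SE, adjusted p = 0.748). The medians were -0.2 over the 7 genes and 0.003 over all genes.

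The H against V difference itself differed between G-coded and C-coded libraries for Gad1 and Sp9. For Gad1 it was -0.23 in G-coded and -0.62 in C-coded libraries, and the difference between them was 0.38 ± 0.10 (log2, SE, adjusted p = 0.0368). For Sp9 it was 0.33 in G-coded and -1.59 in C-coded libraries, a difference of 1.93 ± 0.52 (log2, SE, adjusted p = 0.0361). These were 2 of 7 genes called, both higher, where 8.52% of all genes were called, 4.42% higher and 4.1% lower, with medians of 0.14 over the 7 genes and 0.019 over all genes. Each of these calls was lost in 7 of the 8 leave-one-out fits, with adjusted p up to 0.172 for Gad1 and 0.137 for Sp9. The exceptions were the fit without CH2 for Gad1 and the fit without CH1 for Sp9. All 6 comparisons share libraries and 1 estimate of the spread.

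With the filter on low counts, other transcription factors of the interneuron lineage were called between G and C no more often than genes in general. Of 18 listed, 15 were tested and 3 were called, 2 higher and 1 lower, where 20% of all genes were called. Without that filter, 5 of 17 were called, 4 of them higher, where 3682 of 26462 genes were called. Their median log2 difference was 0.01, against -0.008 over all genes. Sox4, which acts in newly formed neurons, rose (0.28 ± 0.04, adjusted p = 0.000585), at 210 ± 24.8 CPM in G-coded and 173 ± 18.8 CPM in C-coded libraries (SD, n = 4 each). Etv1, found in a subset of olfactory bulb interneurons, rose by 0.14 ± 0.04 (adjusted p = 0.0299). Zic1, a zinc-finger factor, fell, at 9.06 ± 0.501 CPM in G-coded and 14.3 ± 2.34 CPM in C-coded libraries (-0.64 ± 0.09, adjusted p = 0.000313). Between CH and CV libraries 4 of the 15 were called, where 11.8% of all genes were, and without CH2, CV1 or CV2 the count was 1. Among them, Sall3 (-0.43 ± 0.06, adjusted p = 0.000963) and Sox4 (-0.27 ± 0.06, adjusted p = 0.00979) were lower in CH. Between GH and GV libraries 3 of the 15 were called, all lower in GH, where 1.94% of all genes were called and 0.232% were lower, among them Sox4 (-0.29 ± 0.06, adjusted p = 0.0238) and Etv1 (-0.24 ± 0.06, adjusted p = 0.0468). That count was 1 with a replicate block, 1 with the compared codes alone, and 0 to 2 with each library left out, with none called without GH1, GH2 or GV1. Values after ± are SEs on the log2 scale unless given as SD.

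Genes of the neuroblast cytoskeleton and migration gave 8 calls among 18 tested between G and C, 5 higher and 3 lower, where 20% of all genes were called, 9.32% higher and 10.7% lower. The count was 5 without CH1 or CV2, 4 without GH1 and 3 without GH2, and an additive fit called 2, both higher. Their median log2 difference was 0.07, against -0.008 over all genes. Erbb4, a neuregulin receptor of migrating neuroblasts, rose, at 57.4 ± 6.88 CPM in G-coded and 42.6 ± 3.95 CPM in C-coded libraries (SD, n = 4 each; 0.43 ± 0.05, adjusted p = 0.000196). Dclk1, a relative of Dcx, rose by 0.33 ± 0.04 (adjusted p = 0.000348). The neuronal RNA-binding protein gene Elavl4 was at 0.30 ± 0.06 over both letters (adjusted p = 0.00525), with 0.08 ± 0.09 within H (adjusted p = 0.786) and 0.51 ± 0.09 within V (adjusted p = 0.00109). Map1b, a microtubule-associated protein of growing neurites, was at -0.25 ± 0.06 over both letters (adjusted p = 0.0109), with -0.52 ± 0.08 within H (adjusted p = 0.00603) and 0.03 ± 0.09 within V (adjusted p = 0.846). The difference between the letters was itself called for Elavl4 (-0.44 ± 0.13, adjusted p = 0.048) and Map1b (-0.55 ± 0.12, adjusted p = 0.0167), unlike that for Tubb3. Between CH and CV libraries 5 of 18 were called, 1 higher and 4 lower, where 6.34% of all genes were higher and 5.45% lower. Without CH2 or CV2 the count was 2, and without CV1 it was 3. Map1b was higher in CH (0.54 ± 0.08, adjusted p = 0.00175). Rbfox3 (-0.99 ± 0.26, adjusted p = 0.0259), Dpysl3 (-0.39 ± 0.06, adjusted p = 0.00111) and Elavl3 (-0.29 ± 0.08, adjusted p = 0.0339), all of them genes of young or mature neurons, were lower there. The SEs are on the log2 scale.

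Genes that handle GABA beside Gad1 gave 6 calls among 9 tested between G and C, 4 higher and 2 lower, where 20% of all genes were called. An additive fit called 2 of the 9, 1 in each direction, and the count was 4 without GH2. Their median log2 difference was 0.12, against -0.008 over all genes. Abat, the transaminase that breaks GABA down, was at 110 ± 9.44 CPM in G-coded and 78.4 ± 6.14 CPM in C-coded libraries (SD, n = 4 each; 0.49 ± 0.04, adjusted p = 6.7e-06). The receptor subunit gene Gabra2 was at 0.29 ± 0.05 over both letters (adjusted p = 0.000881), with 0.04 ± 0.06 within H (adjusted p = 0.872) and 0.55 ± 0.06 within V (adjusted p = 0.000113). The difference between the letters was -0.51 ± 0.09 (adjusted p = 0.00771). Slc6a11, a GABA transporter typical of astrocytes, fell, at 67.9 ± 4.19 CPM in G-coded and 108 ± 4.51 CPM in C-coded libraries (-0.67 ± 0.05, adjusted p = 3.32e-06). Between CH and CV libraries 3 of 9 were called, where 11.8% of all genes were, and the count was 1 without CH2 or CV2. Gabra2 was higher in CH than in CV libraries (0.36 ± 0.07, adjusted p = 0.00388), where Gad1 was lower, and Abat was lower with Gad1 (-0.19 ± 0.06, adjusted p = 0.0458; SEs on the log2 scale). Slc32a1, the vesicular GABA transporter gene that marks GABA-releasing neurons, had 0 reads in every library.

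Most markers of mature interneuron subtypes were barely read. Of 9 listed, 7 were under 1 CPM in every library, and Th, Vip and Sst had 0 reads. The exceptions were Reln, an extracellular matrix protein gene, with 172 to 273 reads, and Calb2, a calcium-binding protein gene, with 22 to 45 reads. Among the 4 that could be tested, edgeR called 0 in each of the 6 comparisons. The count with DESeq2 was also 0, but genes to which it gave no adjusted p were counted as not called. That count therefore cannot separate genes tested and not called from genes left untested. The unadjusted p was under 0.05 for 0 of the 4 between G and C and for at most 1 in any other comparison.

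**Figure D4:**
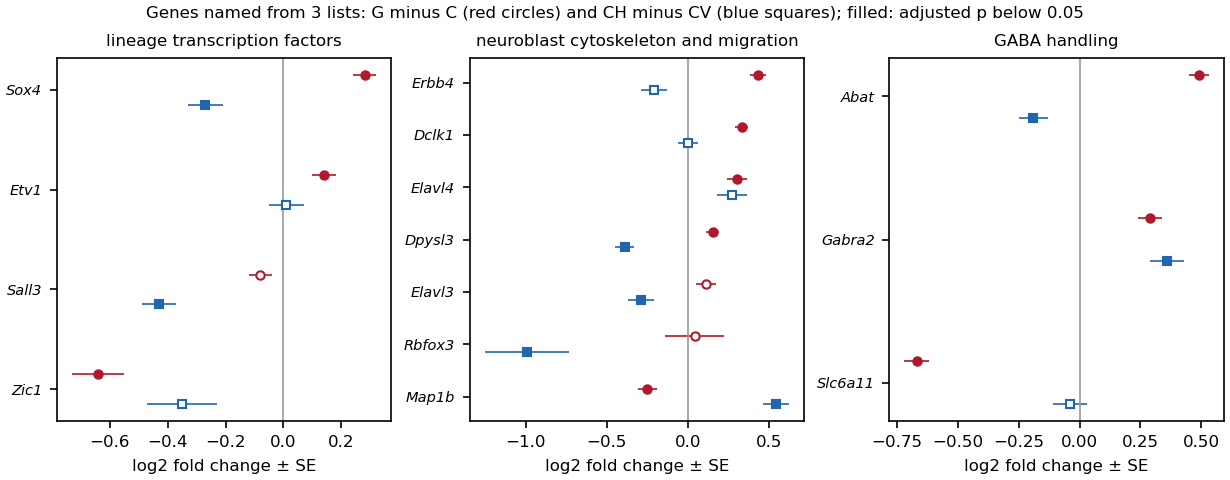
Fitted log2 differences of the genes named above from 3 lists, for G minus C over both letters (red circles) and for CH minus CV (blue squares), with bars of 1 SE on each side and filled symbols for adjusted p below 0.05. The called genes shown stand on both sides of 0 in all 3 lists, from Slc6a11 at -0.67 to Abat at 0.49 for G minus C among the GABA genes.

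Markers of other cell states moved with the same comparisons, and their part in the values of the 9 genes was not tested. The 8 neural stem cell markers summed to 4860 to 5330 CPM in G-coded and 5590 to 5750 CPM in C-coded libraries. Of these 8 markers, 3 were called between G and C, where 20% of all genes were called, with Fabp7 (-0.31 ± 0.06) and Nes (-0.28 ± 0.04) lower and Sox9 (0.25 ± 0.06) higher. The 7 astrocyte markers summed to 420 to 454 CPM in G-coded and 510 to 591 CPM in C-coded libraries. Gfap had 0 to 38 reads, Aqp4 51 to 99 and Gjb6 0 to 3. Of 6 tested, 3 were called, 2 higher and 1 lower, where 9.32% of all genes were higher and 10.7% lower. Aldh1l1 was lower (-0.82 ± 0.04), at 176 ± 2.22 CPM in G-coded and 311 ± 24.6 CPM in C-coded libraries (SD, n = 4 each), while S100b (0.48 ± 0.11) and Slc1a2 (0.19 ± 0.04) were higher. The 8 oligodendrocyte lineage markers summed to 1430 to 1530 CPM in CH and 1930 to 1960 CPM in CV libraries, with 4 of 6 tested lower in CH, where 5.45% of all genes were lower. In G-coded libraries their sum was 1650 to 1700 CPM. The 7 transit-amplifying and cycling markers summed to 2600 to 2760 CPM in G-coded and 2730 to 2870 CPM in C-coded libraries, with 2 of 7 lower, where 10.7% of all genes were lower (SEs after ± are of log2 differences). Endothelial markers summed to 1.12 to 1.53 CPM in G-coded and 1.71 to 2.83 CPM in C-coded libraries. Of the 3 endothelial markers tested, Flt1 was lower in G-coded libraries (-2.35 ± 0.57), while Tek (-0.15 ± 0.26) and Pecam1 (0.19 ± 1.11) were not called. Flt1 was barely read, at 0 to 0.275 CPM in G-coded and 0.387 to 1.73 CPM in C-coded libraries. Within H and within V, edgeR did not call it (adjusted p = 0.0522 and 0.225). Pericyte and fibroblast markers summed to 0.851 to 1.4 CPM in G-coded and 1.77 to 8.43 CPM in C-coded libraries, with Pdgfrb at 0 reads. Of the 2 pericyte and fibroblast markers tested, Acta2, a smooth muscle actin gene, was lower in G-coded libraries (-2.05 ± 0.24), and Rgs5 was at 2.4 ± 0.9 (adjusted p = 0.076). Ependymal markers summed to 19.6 to 22.7 CPM in G-coded and 16.5 to 23.6 CPM in C-coded libraries.

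Among the other 17637 tested genes, those whose log2 CPM followed a member most closely over the 8 libraries were found by Pearson's r, as a description of points that share libraries, depth and group means. For Gad1 these were Ntrk3 (r = 0.983), Usp11 (0.977) and Loxl2 (0.975). For Tubb3 they were Bak1 (0.98), Wwc1 (0.977) and Lamb1 (0.965). For Sp9 they were Acads (0.966), Ttl (0.964) and P3h3 (0.962). The closest to Dlx1 was Utp25 (0.922), to Dlx2 1700001J03Rik (0.979), to Dcx Megf11 (0.938) and to Sp8 Oscar (0.986). For the mean of the 7 genes, the closest were Srrm4 (0.971), Gm38504 (0.968) and Dck (0.949).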

How the data were processed

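Total RNA went into strand-marking libraries once ribosomal RNA had been removed (labels' protocols). The tools listed, without their roles, are HISAT2 2.1.0, StringTie 2.1.3b, bcl2fastq 2.20.0 and Trimmomatic, with the build GRCm38 (mm10), per the submitters' processing notes. Per the file headers, the deposited values are read counts, FPKM and TPM of each gene in each library. Whether strand was used in counting, and which filters ran, is not given here. Only the deposited counts were used, and the 16 columns of FPKM and TPM were not.

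Counts of all genes were filtered by filterByExpr over the 4 codes, TMM-normalised and fitted with edgeR 4.0.16 (R 4.3.3, limma 3.58.1), 1 coefficient per code over all 8 libraries, with the quasi-likelihood test and Benjamini-Hochberg adjustment over the 17644 genes tested. Calls are at an adjusted p below 0.05, and intervals take 1.96 SEs. The fit was tested on simulated data. Levels per kilobase divide CPM by the union of exons in GENCODE. DESeq2 1.42.0, RLE size factors, no filter, fits of the compared codes alone, an additive fit, a replicate block and leaving out each library were the alternatives. The 9 genes are named throughout. Other lists give at most the 4 called genes with the largest change per comparison, and the 3 to 5 genes most like a member are named by correlation. The members and lists were chosen with earlier results of these data known. Some genes of these lists are counted but not reported here by name.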

Additional observations from a re-analysis of the deposited data

Results flagged for a closer look

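Sp9 and Gad1 stood out because their H against V differences were not the same in G-coded and C-coded libraries, by a test of the difference itself. For Sp9 the difference between the H minus V values was 1.93 ± 0.52 on the log2 scale (SE), with H minus V at 0.33 in G-coded and -1.59 in C-coded libraries. For Gad1 it was 0.38 ± 0.10 (SE), with H minus V at -0.23 in G-coded and -0.62 in C-coded libraries. The adjusted p from edgeR was 0.0361 for Sp9 and 0.0368 for Gad1. Sp9 was read 38 to 50 times in G-coded and 19 to 72 times in C-coded libraries. Gad1 was read 2483 to 3304 times in G-coded and 1490 to 2746 times in C-coded libraries.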

How the results depend on the processing

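The Gad1 and Tubb3 differences between G and C kept their direction and their call with each library left out, and so did Gad1 between GH and CH and between CH and CV. A code left with 1 library was assumed to vary like the other codes. The calls of Gad1 and Tubb3 within V, of Sp9 between CH and CV, and of Gad1 and Sp9 for the difference of differences were each lost in at least 1 of these fits. The number of genes called with each library left out ran between 1833 and 3565 for G against C, 55 and 434 within H, 2199 and 4561 within V, 3 and 877 for GH against GV, 397 and 2255 for CH against CV, and 145 and 1659 for the difference between these; of the 9 genes, 0 to 2, 1 to 2 and 0 to 1 were then called within V, for CH against CV and for the difference. The cause was not tested.

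Log2 differences that changed sign with a library left out were all uncalled. Their ranges were -0.36 to 0.022 (Dlx2) and -0.011 to 0.18 (S1pr1) for G against C. Within H they were -0.88 to 0.18 (Dcx), -0.42 to 0.15 (Dlx1) and -1.03 to 0.18 (Sp8), and within V -0.18 to 0.54 (Dlx2). For GH against GV they were -0.83 to 0.16 (Dcx), -0.17 to 0.40 (Dlx1), -0.083 to 0.058 (S1pr1), -0.14 to 0.11 (Tubb3) and -0.93 to 0.27 (Sp8). For CH against CV they were -0.88 to 0.035 (Dcx), -0.37 to 0.11 (Dlx1), -0.70 to 0.014 (Dlx2) and -0.19 to 0.11 (Tubb3). For the difference of differences they were -0.44 to 0.63 (Dcx), -0.062 to 0.51 (Dlx1) and -0.12 to 0.18 (Tubb3), and without a filter the last of these was -0.008.

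For GH against GV, 343 genes were called, 668 with DESeq2, 524 without a filter and 195 with the compared codes alone. The share of these called higher was 88% and with DESeq2 71.7%. Without a filter, 577 genes were called within H in place of 384. An additive fit called 819 genes between G and C in place of 3524. With DESeq2, 1 of the 9 genes, Gad1, was called for each of GH against GV, CH against CV and the difference of differences. DESeq2 gave Sp9 no adjusted p in these, and gave Tubb3 none for GH against GV. A gene without an adjusted p was counted as not called.

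Same-numbered libraries deviated together with correlations between -0.067 and 0.107, so no strong pairing by number was seen. With so few libraries per code, this cannot exclude that same-numbered libraries were handled together. With a replicate block, 216 genes were called for GH against GV, and the calls among the 9 genes were the same. Of 581 values of single genes under the alternatives, 521 kept direction and side of the threshold, 27 changed sign, 29 lost a call and 4 gained one. Most of the 581 values belong to differences that were not called in the first place. Values without an adjusted p, such as that of DESeq2 for Sp9 between CH and CV, are not among the 581.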
